A study of Arabidopsis thaliana with 28 samples.

Results

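ERF5 (AT5G47230) is a transcription factor of the AP2/ERF family, and the comparison described here sets Arabidopsis plants that overexpress it against wild-type (WT) plants at 22°C. By their source labels, 2 ERF5 arrays and the 2 Col-0 WT arrays described as the control of the transgenic plants were chosen, 4 of the 28 arrays of the series. All 4 samples were RNA from the whole aerial part of 12-day-old seedlings kept at 22°C on sucrose-free agar under constant light (100 µmol m-2 s-1), hybridised to single-colour oligonucleotide arrays. The series also holds 20 arrays of 10 other overexpressing lines (CRF2, CRF3, CZF1, DEAR1, HSFC1, MYB44, MYB73, RAV1, ZF and ZAT10, where ZF is a zinc finger factor), and 4 arrays of a cold experiment, with Col-0 at 4°C for 24 h under dimmer light (30 µmol) and Col-0 at 22°C. The promoter that drives the ERF5 transgene and the number of independent transformants are not given in the sources used here. The replicates are called biological with no further statement of their origin, so p-values measure the spread between arrays, which may be technical.

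ERF proteins bind the GCC box, a short element in the promoters of many defence genes. Ethylene and jasmonate act together through such factors on antimicrobial proteins, of which the plant defensin PDF1.2 is the classical example, and basic chitinases and osmotin are others. ERF5 and its close relatives are known from work in Arabidopsis on responses to fungal chitin and on leaf growth under osmotic stress.

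Values are deposited log2 signals, in which a difference of 1 is a 2-fold difference. They ran from 2.13 to 14.94, and values near 2.13 lie at the floor of the measurement. Of the 11 overexpressed factors the array annotation named 1, ZAT10 (as STZ), so the ERF5 transcript itself could not be checked. STZ had log2 signals of 4.24 and 4.15 in ERF5 plants and of 4.08 and 4.07 in WT control. RCA, the activase of Rubisco, was the one listed marker of green aerial tissue named on the array. It had 14.20 and 14.11 in ERF5 plants and 13.97 and 14.24 in WT control. A high RCA signal goes with green tissue but cannot show whether roots were absent. Of 12 root markers, 4 were named, and their summed linear signal was 4495.7 and 5033.6 in ERF5 plants against 4273.6 and 5315.9 in WT control. Most of this sum is the signal of PYK10, with log2 values of 11.96 and 12.16 in ERF5 plants and 11.91 and 12.22 in WT control. By limma 0 of the 4 passed the test (1 at an unadjusted p under 0.05), and the root hair expansin EXPA7 had 5.95 and 5.84 in ERF5 plants and 4.72 and 4.74 in WT control (limma adjusted p = 0.463). Another expansin, EXPA18, had 5.82 and 6.01 in ERF5 plants and 5.30 and 5.66 in WT control (limma adjusted p = 0.848). Thus 2 of the 4 markers were higher on both ERF5 arrays, as were 23.3% of all tested probe sets. No guard cell marker was named. Array medians were 5.45 and 5.41 in ERF5 plants and 5.42 and 5.43 in WT control. Some control probe sets differed between the groups. The 25S rRNA signal was 8.80 and 9.0 in ERF5 plants against 10.23 and 10.13 in WT control, and the 3′ minus 5′ difference of GAPDH, which grows as RNA is shortened, was 1.27 and 1.43 against 0.75 and 0.91. That of ubiquitin was 1.61 and 1.52 in ERF5 plants against 1.27 and 1.2 in WT control, and that of actin, at 5.59 and 5.21 against 5.42 and 5.40, overlapped. The part of these in the results below was not tested. Since whole shoots were sampled, fewer cells of a type and less RNA per cell cannot be told apart in any lower value.

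The first question was which transcripts differed between ERF5 plants and WT control. Few passed the test, and those that did included a chitinase, a methyltransferase and a transporter on the higher side and the growth gene EXO on the lower side. Of 15916 probe sets, 11 rose (0.0691%) and 2 fell (0.0126%) at a limma adjusted p under 0.05, with the spread of each probe set pooled over all 14 groups of 2 arrays. Of these 13 (0.0817%), 6 name a gene, and the other 7 are unnamed here. The 5 named genes with the largest differences, AT4G33720, PDF1.2, PDF1.2b, AT3G23550 and AT3G16530, did not pass against WT control. The count rests on which arrays enter the fit. It was 190 (110 higher, 0.691%, and 80 lower, 0.503%) without the 2 CRF3 arrays, whose replicates differed most of all groups, 14 without ERF5 replicate 1, and 0 without ERF5 replicate 2 or without either WT control array, where limma gave 967, 818 and 1020 at an unadjusted p under 0.05. The fit as reported gave 1442 (9.06%).

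Among the genes that passed, the chitinase gene AT2G43590 had the smallest p. Chitinases hydrolyse the chitin of fungal walls. Its log2 signal was 7.66 and 7.68 in ERF5 plants, against 4.61 and 5.04 in WT control, a difference of 2.85 ± 0.39 (SE; limma adjusted p = 0.0129). Both ERF5 arrays lay well above both WT control arrays. AT4G36500, a gene of unstated function, had 7.94 and 8.65 in ERF5 plants and 6.50 and 6.17 in WT control, a difference of 1.96 ± 0.32 (limma adjusted p = 0.0271). AT1G55450, which encodes a predicted methyltransferase, had 9.0 and 8.79 in ERF5 plants and 7.52 and 7.41 in WT control, a difference of 1.43 ± 0.22 (limma adjusted p = 0.0187). In these genes too the groups did not overlap. AT1G25275, which encodes a thionin-like protein, had 11.44 and 11.63 in ERF5 plants and 10.61 and 10.20 in WT control, a difference of 1.13 ± 0.21 (limma adjusted p = 0.043). AT5G52450, a MATE family efflux transporter, had 7.16 and 7.48 in ERF5 plants and 6.52 and 6.18 in WT control, a difference of 0.97 ± 0.18 (limma adjusted p = 0.043). None of these genes passed when the untreated WT of the cold experiment replaced WT control. The differences of AT2G43590, AT4G36500, AT1G55450, AT1G25275 and AT5G52450 were then 0.435, 0.53, 0.495, 0.345 and -0.285. Their limma adjusted p values were 0.398, 0.198, 0.0786, 0.196 and 0.217, in the same order. AT2G43590 averaged 7.24 in that WT. That WT had higher array medians than ERF5 plants, and the part of this was not tested. With 1 array left out, AT2G43590 and AT4G36500 each passed in 1 of 4 fits, those without ERF5 replicate 1, and AT1G55450, AT1G25275 and AT5G52450 in 0 of 4.

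The one named gene that fell was EXO (EXORDIUM, AT4G08950), a brassinosteroid-responsive gene that promotes leaf growth. It had 7.75 and 7.51 in ERF5 plants and 8.68 and 9.14 in WT control, a difference of -1.28 ± 0.22 (limma adjusted p = 0.0339). Both ERF5 arrays were lower than both WT control arrays. EXO also passed against the untreated WT of the cold experiment, with a difference of -0.73 (limma adjusted p = 0.016). A lower call was common with that control, at 5169 of 15916 probe sets, against 822 called higher. The part of the higher array medians of that WT was not tested. EXO passed in 0 of the 4 fits that left out 1 array (adjusted p from 0.0698 to 0.396).

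**Figure D1:**
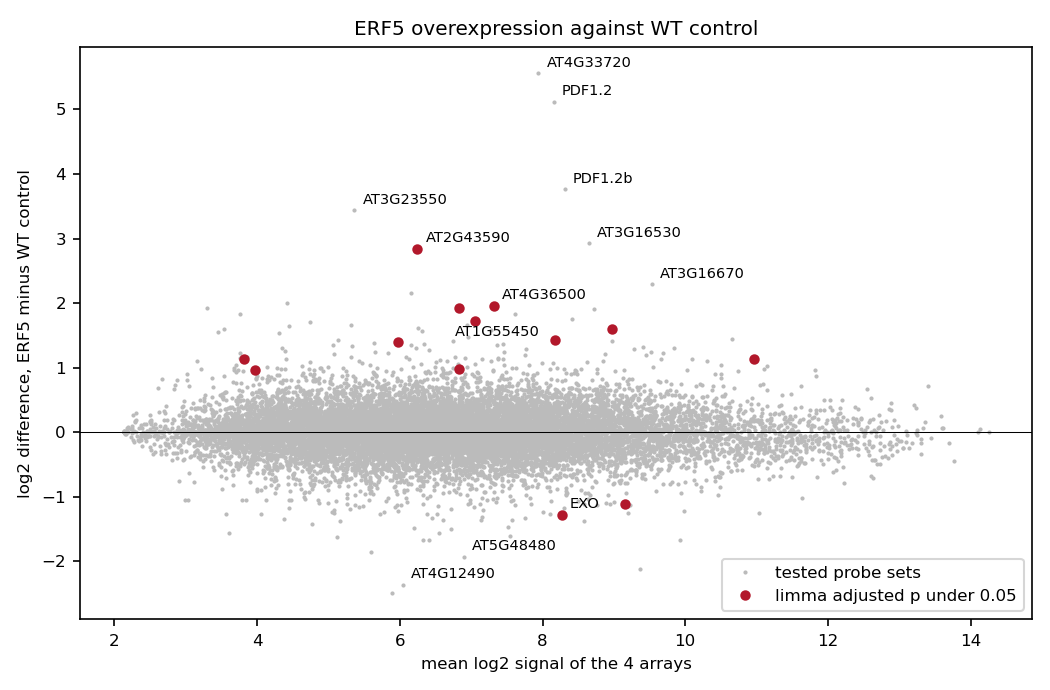
Log2 difference, ERF5 minus WT control (vertical), against the mean log2 signal of the 4 arrays (horizontal) for the 15916 tested probe sets, with the 13 that passed the limma test in red. The largest differences, in AT4G33720, PDF1.2 and PDF1.2b, stand far above the rest and are not among the red points.

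The largest differences above WT control were in AT4G33720, PDF1.2, PDF1.2b and AT3G23550. PDF1.2 (AT5G44420), an antifungal defensin, had log2 signals of 10.89 and 10.54 in ERF5 plants against 5.82 and 5.37 in WT control. The ERF5 arrays were thus far above the control arrays and close to each other, with a difference of 5.12 ± 1.13 that did not pass (limma adjusted p = 0.104). The SE of this probe set was set largely by the DEAR1 replicates, which had 11.78 and 6.59. Without the DEAR1 arrays, an alternative chosen after these values were seen, the limma adjusted p of PDF1.2 was 0.00858. Its paralogue PDF1.2b (AT2G26020) had 10.77 and 9.62 in ERF5 plants and 6.51 and 6.34 in WT control, a difference of 3.77 ± 1.03 (limma adjusted p = 0.183). The probe set of PDF1.2b is of a kind that can hybridise to close copies, so the share of each paralogue in its signal is uncertain.

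AT4G33720, a member of the PR-1-like family of secreted cysteine-rich proteins, had 9.90 and 11.55 in ERF5 plants and 5.29 and 5.03 in WT control. Its difference of 5.57 ± 1.47 exceeded that of every other tested probe set and did not pass (limma adjusted p = 0.168, and 0.0466 without the CRF3 arrays). AT3G23550, another MATE family efflux transporter, had 7.73 and 6.44 in ERF5 plants and 3.76 and 3.52 in WT control, a difference of 3.45 ± 0.72 (limma adjusted p = 0.0752). The legume lectin-like gene AT3G16530 had 10.07 and 10.16 in ERF5 plants and 7.43 and 6.95 in WT control, a difference of 2.93 ± 0.57 (limma adjusted p = 0.0619). In each of these genes both ERF5 arrays were above both WT control arrays. DEAR1 replicate 1 was high in AT3G23550 (7.98, against 4.13 in DEAR1 replicate 2) and in AT3G16530 (10.87, against 8.53), as it was in PDF1.2. Without the DEAR1 arrays the limma adjusted p was 0.00016 for AT3G23550 and 0.00858 for AT3G16530. With the untreated WT of the cold experiment as control, AT4G33720, PDF1.2, PDF1.2b, AT3G23550 and AT3G16530 passed, by 8.365, 5.3, 4.235, 2.2 and 1.62. Their limma adjusted p values were 0.000385, 0.00167, 0.00403, 0.0223 and 0.0329, in that order. AT3G16670 did not pass (0.705, limma adjusted p = 0.325). Of 15916 probe sets, 822 were called higher and 5169 lower with that control. The part of its higher array medians was not tested.

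The next genes by size were AT3G16670, with 10.71 and 10.65 in ERF5 plants and 8.35 and 8.43 in WT control, and AT4G16260, of the β-1,3-glucanase family, with 9.63 and 9.72 in ERF5 plants and 7.49 and 8.04 in WT control. Their differences of 2.29 ± 0.55 and 1.91 ± 0.73 did not pass (limma adjusted p = 0.12 and 0.394). Of the 15 named genes farthest above WT control, with differences from 1.56 to 5.57, 2 passed the test, 12 passed without the CRF3 arrays, 5 without the DEAR1 arrays and 13 without both. Over all 15916 tested probe sets, the counts called higher in these fits were 11, 110, 16 and 158. The 15 were picked by their size in this same comparison, so their counts are a description only. The remaining genes of the 15 were AT1G76960, AT3G09020, AT2G39920, AT1G07050, AT2G23680 (of the WCOR413 cold acclimation protein family) and AT5G62360 (an inhibitor of invertase or pectin methylesterase), with differences of 1.83, 1.83, 1.70, 1.66, 1.62 and 1.56. Both arrays of one group lay beyond both of the other, with at least a 2-fold difference, in 107 probe sets on the higher side (0.672%) and 99 on the lower side (0.622%).

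On the lower side, the largest difference of a named gene was in AT4G12490, of a family of hybrid proline-rich proteins. It had 5.02 and 4.70 in ERF5 plants and 7.13 and 7.32 in WT control, a difference of -2.37 ± 0.88 (limma adjusted p = 0.368). Its family member AT4G12500 had 2.91 and 2.72 in ERF5 plants and 4.61 and 4.16 in WT control, a difference of -1.57 ± 0.53 (limma adjusted p = 0.314). The ERF5 values of AT4G12500 are close to the floor, so this difference may be understated. AT5G48480 had 6.54 and 5.32 in ERF5 plants and 7.79 and 7.93 in WT control, a difference of -1.93 ± 0.49 (limma adjusted p = 0.149, and 0.00632 without the CRF3 arrays). JAL23, a jacalin-related lectin, had 4.16 and 4.46 in ERF5 plants and 5.82 and 6.04 in WT control, a difference of -1.62 ± 0.43 (limma adjusted p = 0.177).

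Of the 15 named genes farthest below WT control, with differences from -2.37 to -1.27, 1 (EXO) passed the test, 5 passed without the CRF3 arrays, 1 without the DEAR1 arrays and 8 without both. Over all tested probe sets, the counts called lower in these fits were 2, 80, 2 and 119. These 15 too were picked by size in this comparison, so their counts are a description only. Among the other genes of the 15, some belong to families linked to the cell wall, and none of these passed as reported. GH9B13, of an endoglucanase family, differed by -1.38, AT5G09760, of the pectin methylesterase family, by -1.37, and CSLA01, of a family of mannan synthases, by -1.27. Their limma adjusted p values were 0.604, 0.247 and 0.591, in that order. The 3 tested genes picked by a pectin enzyme name, without AT5G09760, had a median difference of 0.335, and 0 of them passed in limma. GH9B13 had 8.68 and 7.12 in ERF5 plants and 9.40 and 9.15 in WT control, so its ERF5 replicates were far apart. The plastid gene accD, for a subunit of acetyl-CoA carboxylase, also had ERF5 replicates far apart, with 5.81 and 7.75 in ERF5 plants and 8.24 and 8.27 in WT control. The asparaginase gene ASPGB1 had 5.76 and 5.72 in ERF5 plants and 7.01 in both WT control arrays, a difference of -1.27 ± 0.42 (limma adjusted p = 0.298). The others were AT1G62500, AT1G63100 (of the GRAS family of regulators), AT4G20320, AT1G31710 (a copper amine oxidase) and the lectin gene AT5G03350, with differences of -1.67, -1.38, -1.35, -1.33 and -1.27.

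**Figure D2:**
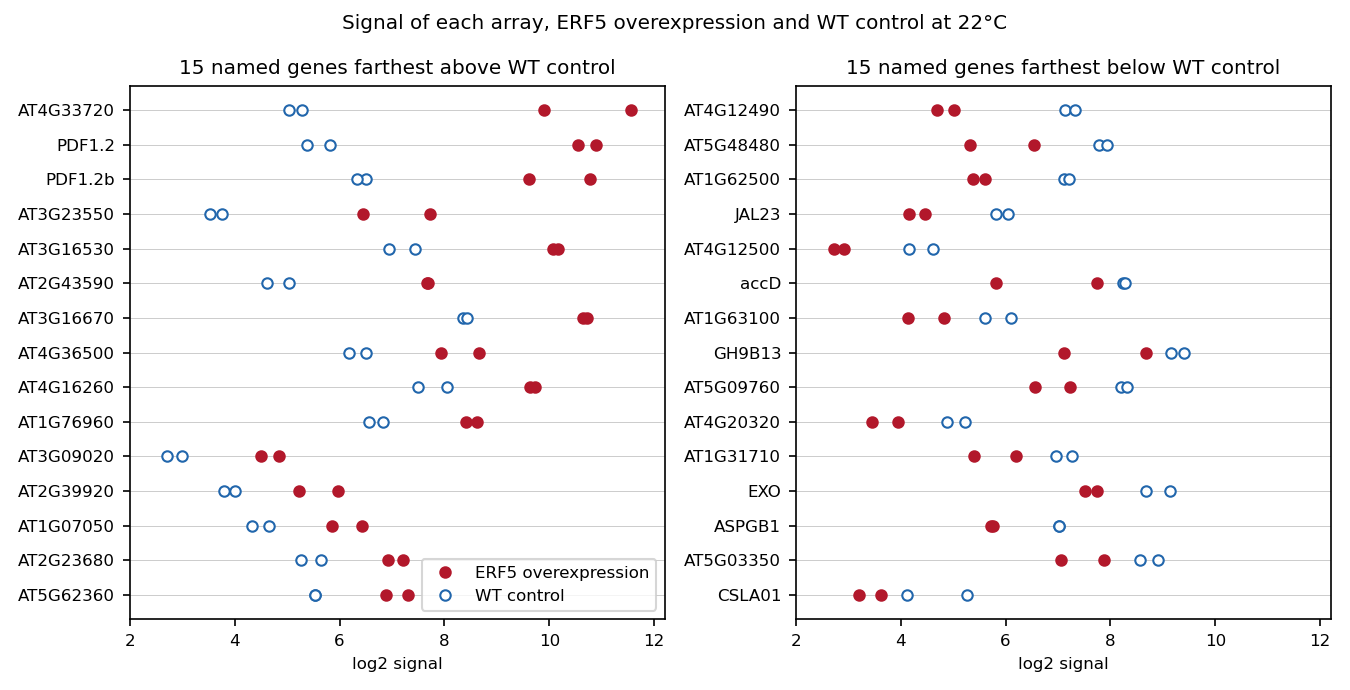
Log2 signal (horizontal) of each ERF5 array (filled red) and each WT control array (open blue) for the 15 named genes farthest above WT control (left) and the 15 farthest below it (right). The ERF5 replicates of AT4G33720, at 9.90 and 11.55, and of accD, at 5.81 and 7.75, lie far apart, while those of AT2G43590 and AT3G16670 nearly coincide.

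Of unnamed probe sets, 250983_at and 245038_at lay farthest above WT control, by 2.16 and 2.01, and 265058_s_at and 245928_s_at farthest below it, by -2.50 and -2.12. None of these passed (limma adjusted p from 0.149 to 0.585). Among the 7 unnamed probe sets that did pass, 6 were higher in ERF5 plants and 264327_at was lower, by -1.12 ± 0.17 (limma adjusted p = 0.0187). It was named here after its value was seen, as the only other call on the lower side.

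Of 13 listed genes of ethylene and jasmonate defence, 6 passed the filter on low signal. AT2G43590 rose, the other 5 did not pass, and both ERF5 arrays lay above both WT control arrays in 5 of the 6, against 23.3% of all tested probe sets. The median difference of the 6 was 1.90, beside 0.00 over all tested probe sets. The list was chosen with earlier results of these data known, so its counts and median are a description only. The median lies midway between the differences of OSM34 and AT2G43590. GRX480, among the 5 that did not overlap, was below a log2 signal of 4 on all 4 arrays. OSM34, an osmotin-like protein, had 9.87 and 9.38 in ERF5 plants and 8.61 and 8.73 in WT control (difference 0.96 ± 0.61, limma adjusted p = 0.704). The glutaredoxin gene GRX480, which links salicylate and jasmonate signalling, had 3.49 and 3.43 in ERF5 plants and 3.36 in both WT control arrays, and the chitinase gene CHI (AT2G43570) had 4.03 and 3.37 in ERF5 plants and 3.77 and 3.56 in WT control. The differences above 1 log2 unit on this list were thus those of the defensin genes and of 1 chitinase gene. Among 11 tested chitinase genes, a list made after the values were seen, AT2G43590 rose, 0 fell, and the median difference was 0.04. Its neighbour AT2G43620 had 5.31 and 4.16 in ERF5 plants and 5.77 and 5.36 in WT control.

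Of 22 PR-1-like genes, 11 were tested by limma and 0 passed (2 at an unadjusted p under 0.05), with 1 (AT4G33720) passing without the CRF3 arrays. At an unadjusted p under 0.05 the share over all tested probe sets was 9.06%. The median difference of the 11 was 0.29. Against the other lines 3 of the 11 were called higher, beside 1.5% of all tested probe sets. They were AT4G33720, AT4G31470 (by 1.3, limma adjusted p = 0.00729) and PR-1-LIKE (AT2G19990, by 1.91, limma adjusted p = 0.0469). After AT4G33720 the next in size was AT4G31470, with 4.74 and 5.70 in ERF5 plants and 3.94 and 4.77 in WT control, which overlap. Of 8 tested genes picked by a defensin or thionin name, 0 passed in limma (2 at an unadjusted p under 0.05, PDF1.2 and PDF1.2b). The differences of the others ran from -0.27 in LCR69 to 0.40 in PDF2.5. The thionin-like gene AT1G25275, which passed, was not picked by its name and is not among the 8. The jasmonate methyltransferase gene JMT, the only tested gene of 22 on jasmonate synthesis and signalling, had 4.50 and 4.39 in ERF5 plants and 5.23 and 5.13 in WT control (limma adjusted p = 0.564). The lipase-like immune regulator SAG101, the only tested gene of 20 on salicylate defence, had 5.0 and 4.97 in ERF5 plants and 5.48 and 4.89 in WT control. Of 19 ERFs related to ERF5, AT5G61590 and AT5G07580 were tested and did not pass, with differences of -0.02 and 0.41. The salicylate and jasmonate pathways are therefore hardly covered by named probe sets.

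All 5 tested genes of 13 on flavonoid and anthocyanin synthesis were lower on both ERF5 arrays than on both WT control arrays, as were 22.2% of all tested probe sets, and 0 of the 5 passed the limma test (1 at an unadjusted p under 0.05). Their median difference was -1.07. DFR, which reduces dihydroflavonols on the way to anthocyanins, had 7.81 and 7.37 in ERF5 plants and 8.92 and 8.39 in WT control (limma adjusted p = 0.779). The anthocyanin acyltransferase AT5MAT had 4.84 and 4.98 in ERF5 plants and 6.14 and 5.98 in WT control, and its difference of -1.15 ± 0.40 had the smallest p of the 5 (limma adjusted p = 0.332). The glycosyltransferases UF3GT, AT4G14090 and UGT78D2 differed by -1.27, -0.93 and -0.56.

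No member of the cell wall and other families described next passed the limma test against WT control. Over all tested probe sets, 9.06% had an unadjusted p under 0.05. Both ERF5 arrays lay above both WT control arrays in 23.3% and below both in 22.2%. These counts, above and below, were 4 and 1 of 8 xyloglucan endotransglucosylases, 3 and 7 of 15 expansins and 6 and 1 of 14 cytochromes P450. They were 2 and 0 of 3 gibberellin genes and 9 and 16 of 66 chloroplast-encoded genes. Of 8 tested xyloglucan endotransglucosylases, which cut and rejoin wall xyloglucan, 0 passed in limma (1 at an unadjusted p under 0.05), and XTH20 had 7.33 and 6.77 in ERF5 plants and 5.99 and 5.93 in WT control (1.09 ± 0.31, limma adjusted p = 0.206). Of 15 expansins 0 passed in limma (1 at an unadjusted p under 0.05), with differences from -1.14 in EXPB3 to 1.17 in EXPA7. Of 14 cytochromes P450 0 passed in limma (2 at an unadjusted p under 0.05), and CYP71B22 had 5.15 and 5.0 in ERF5 plants and 3.64 and 3.45 in WT control (1.53 ± 0.45, limma adjusted p = 0.231). The 3 tested gibberellin genes were the receptors GID1A, GID1B and GID1C, with differences of 0.38, 0.03 and 0.12, with 0 calls by limma and 0 at an unadjusted p under 0.05. Of 66 tested chloroplast-encoded genes 0 passed in limma (5 at an unadjusted p under 0.05), with a median difference of -0.16. The photosystem gene psbT had 4.63 and 6.10 in ERF5 plants and 6.82 and 6.37 in WT control, so ERF5 replicate 1 was low here as it was in accD. The largest on the higher side was rpl32, with 11.63 and 11.70 in ERF5 plants and 10.47 and 10.81 in WT control (1.03 ± 0.23, limma adjusted p = 0.109).

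Because every line was compared with the same 2 WT arrays, ERF5 plants were also tested against the mean of the other 10 lines, which uses no WT array for the difference. PDF1.2, AT4G33720, both MATE transporter genes and the lectin gene AT3G16530 passed here. In this comparison 239 probe sets were higher (1.5%) and 583 lower (3.66%) in ERF5 plants at a limma adjusted p under 0.05. The lean to the lower side depends on the processing. Of the calls 29.1% were higher as reported, 48.3% after quantile normalization and 39.1% with CZF1 left out of the other lines. Both comparisons use the same 2 ERF5 arrays, so a call in one is not independent of a call in the other. The count fell to 72 without ERF5 replicate 2 and 279 without ERF5 replicate 1, and was 2446 without CRF3 replicate 1 and 1897 without CRF3 replicate 2.

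PDF1.2 averaged 10.72 in ERF5 plants and 6.37 over the other lines, a difference of 4.35 ± 0.84 (limma adjusted p = 0.00679). Of the 20 arrays of other lines, 1 was above the lower ERF5 array, DEAR1 replicate 1. Taken line by line, PDF1.2 was lower than in ERF5 plants at a limma adjusted p under 0.05 in 7 of the 10 lines, and the exceptions were CRF2, DEAR1 and RAV1. PDF1.2b was higher in ERF5 plants than in the other lines by 2.95 ± 0.76 (limma adjusted p = 0.0309). With either ERF5 array left out neither defensin passed (limma adjusted p = 0.0809 and 0.0916 for PDF1.2, 0.27 and 0.152 for PDF1.2b).

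AT4G33720 was higher in ERF5 plants than in the other lines by 5.37 ± 1.09 (limma adjusted p = 0.00877, and 0.204 without ERF5 replicate 2). Its replicates disagreed in several other lines, with 7.13 and 10.86 in CRF3, 7.48 and 11.02 in DEAR1, 10.25 and 6.27 in HSFC1 and 3.71 and 8.85 in MYB73. High values of this gene were therefore also seen on single arrays of other lines. AT3G23550 was higher by 3.11 ± 0.53 (limma adjusted p = 0.00362, and 0.0885 without ERF5 replicate 1), and AT3G16530 by 2.36 ± 0.42 (limma adjusted p = 0.00439, and 0.0512 and 0.0892 without ERF5 replicate 1 or 2). Line by line, AT3G16530 did not pass against ZAT10, with 9.25 and 9.49 (difference 0.75, limma adjusted p = 0.461), or CZF1, with 9.11 and 8.94 (difference 1.09, limma adjusted p = 0.137), nor against DEAR1 or CRF2 (limma adjusted p = 0.844 and 0.226).

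Of the 6 named genes called against WT control, AT1G55450 had the smallest p against the other lines. It was higher by 1.43 ± 0.16 (limma adjusted p = 0.000165), passed in all 22 fits that left out 1 array, and was higher in ERF5 plants than in 9 of the 10 lines by the test, DEAR1 being the exception with 8.80 and 8.45. AT4G36500 was higher by 1.59 ± 0.24 (limma adjusted p = 0.00164, and 0.0857 without ERF5 replicate 2), and both ERF5 arrays exceeded all 20 arrays of the other lines. The chitinase gene AT2G43590 was higher by 1.22 ± 0.29 (limma adjusted p = 0.0206, and 0.135 and 0.215 without ERF5 replicate 1 or 2). It was not at its highest in ERF5 plants, since CZF1 had 9.50 and 9.16 and ZAT10 had 8.02 and 7.79. On the lower side, AT5G48480 was below the other lines by -1.81 ± 0.36 (limma adjusted p = 0.00844, and 0.295 without ERF5 replicate 2) and EXO by -0.66 ± 0.17 (limma adjusted p = 0.0272, and 0.0918 and 0.355 without ERF5 replicate 1 or 2).

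**Figure D3:**
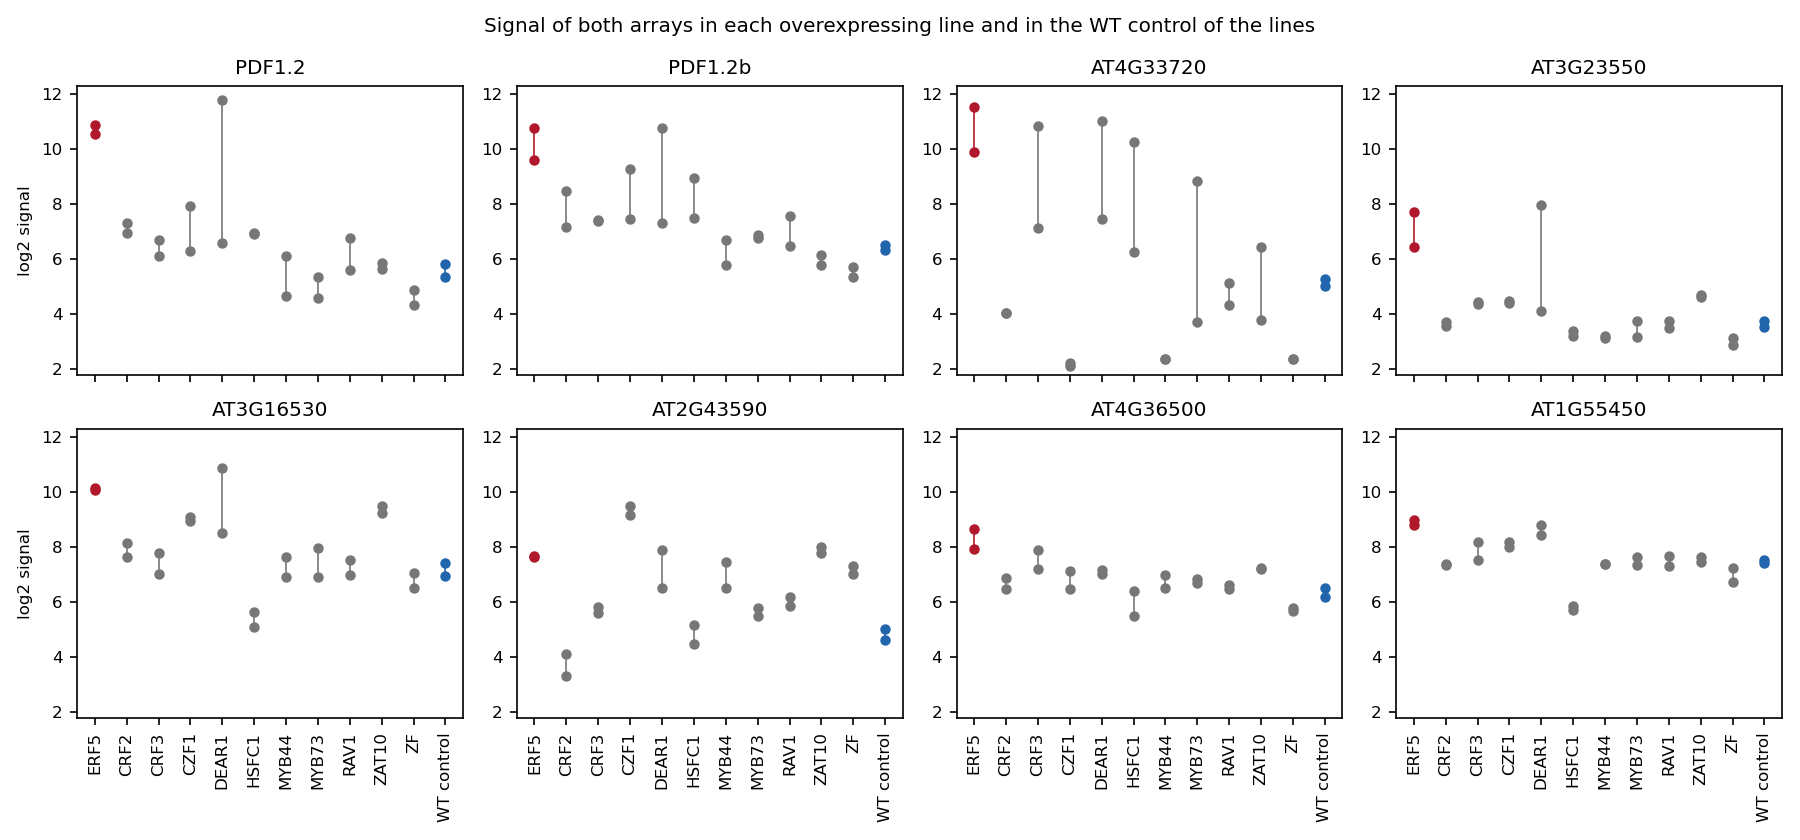
Log2 signal of both arrays of ERF5 plants (red), of each other overexpressing line (grey) and of WT control (blue) for 8 genes, with a line joining the 2 arrays of a group. PDF1.2 and AT3G23550 are high in ERF5 plants and on 1 DEAR1 array, AT3G16530 is high in both of these and also, at 8.94 to 9.49, on both arrays of CZF1 and ZAT10, and PDF1.2b reaches 9.27 on 1 CZF1 array and 8.94 on 1 HSFC1 array. AT4G33720 is high on single arrays of several lines, and AT2G43590 is higher in CZF1 than in ERF5 plants.

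The series describes the overexpressed factors as induced by cold, so the same genes were read in the cold experiment, which shares no array with ERF5 plants or their control. WT plants at 4°C differed from WT at 22°C in 2238 probe sets on the higher side (14.1%) and 2091 on the lower side (13.1%) at a limma adjusted p under 0.05. Of the 15 named genes farthest above WT control in ERF5 plants, 2 were higher and 1 was lower in the cold, and of the 15 farthest below it, 1 was higher and 3 were lower. PDF1.2 averaged 5.43 in cold plants and 5.42 in plants at 22°C, and AT4G33720 averaged 2.48 and 2.36, near the floor. The defensin and the PR-1-like gene were thus low in both groups. The chitinase gene AT2G43590 averaged 8.36 in cold plants and 7.24 in plants at 22°C, a rise of 1.12 ± 0.39 (limma adjusted p = 0.0406).

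Some genes went opposite ways by their values in ERF5 plants and in the cold. The lectin gene AT3G16530 fell in the cold by 3.38 on the log2 scale (SE 0.57, limma adjusted p = 0.000227), with 5.12 in cold plants and 8.50 in plants at 22°C. AT1G55450 and AT1G25275, both higher in ERF5 plants, fell in the cold by 1.09 and 1.22 (limma adjusted p = 0.000988 and 0.000234). AT4G12500, lower in ERF5 plants by its values, averaged 6.96 in cold plants and 4.46 in plants at 22°C (limma adjusted p = 0.0017). The MATE transporter gene AT5G52450 and EXO moved the same way in both, by 1.40 ± 0.18 and -0.82 ± 0.22 in the cold (limma adjusted p = 1.3e-05 and 0.0104). Across the 15916 probe sets the differences of the 2 experiments had a Pearson correlation of -0.02, given as a description across probe sets that are not independent.

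The CBF regulon, the genes switched on in the cold by the CBF factors and thought to protect cells against freezing, was represented by 4 of 14 listed genes. By limma 0 of the 4 passed in ERF5 plants (0 at an unadjusted p under 0.05), while all 4 rose in the cold. COR15A had 6.65 and 5.75 in ERF5 plants and 7.26 and 6.81 in WT control (limma adjusted p = 0.619), LTI30 had 8.21 and 7.68 against 8.18 and 8.14, COR15B had 7.23 and 6.94 against 7.35 and 7.17, and COR47 had 9.82 on both ERF5 arrays against 9.84 and 10.01. The 4 differences ran from -0.84 to -0.11, with SE of 0.45 to 0.57, so changes of about 1 log2 unit in either direction could have been missed. XTH20, called higher in ERF5 plants than in the other lines (1.14, limma adjusted p = 0.00813), rose in the cold by 3.66 (limma adjusted p = 9.35e-08).

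**Figure D4:**
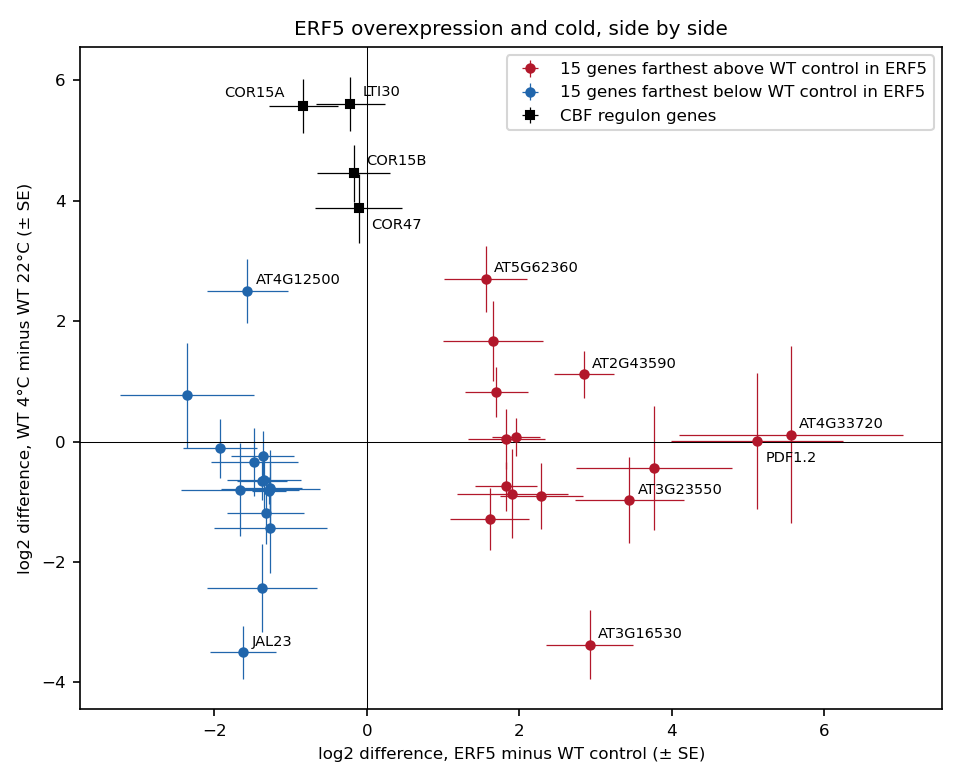
Log2 difference of WT at 4°C minus WT at 22°C (vertical) against the log2 difference of ERF5 minus WT control (horizontal), each ± SE, for the 15 named genes farthest above (red) and below (blue) WT control in ERF5 plants and for 4 CBF regulon genes (black squares). PDF1.2 and AT4G33720 lie near 0 in the cold, and AT3G16530 is high in ERF5 plants and low in the cold. The CBF regulon genes lie between -0.84 and -0.11 in ERF5 plants, and none of them passed there.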

How the data were processed

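The authors deposited log2 signals, 1 column per array, and the submitters' processing notes list GCRMA and limma without version or role. From these values 64 control probe sets were removed, and 15916 of the remaining 22746 with a log2 signal over 4 in at least 2 of the 28 arrays were tested. Group means of all 14 groups were fitted with limma 3.58.1 in R 4.3.3 (14 residual degrees of freedom), with Benjamini-Hochberg adjustment within each comparison and a threshold of 0.05. An exact permutation test of 2 arrays against 2 cannot give a two-sided p below 0.333. The platform annotation named 1 gene for 13513 probe sets, of which 13436 matched a RefSeq locus. Probe sets with several genes (503) or none (8730) were not named. A listed gene was measured by its probe set of highest mean. The files name no genome build, so no coordinates are given. Members, lists and the naming rule (genes that passed, the 15 largest non-overlapping differences each way, the 10 smallest p, the 5 largest each way against the other lines, listed pathway genes) were chosen with earlier results of these data known. A planned search of promoters for the GCC box was not run, since no promoter sequence was used here. The fit was tested on simulated data, and the alternatives are given with the closing section.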

Additional observations from a re-analysis of the deposited data

Results flagged for a closer look

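Of 8679 named genes tested, 51 passed the limma test against the other lines with both ERF5 arrays above all 20 arrays of those lines. In 86 that passed, both ERF5 arrays lay below all 20. Over all 15916 tested probe sets, 239 were called higher (1.5%) and 583 lower (3.66%), a lean that depends on the processing. The 5 largest differences in each direction are given here. Above the other lines were AT4G36500 by 1.59, AT1G26250 by 2.04, AT5G54040 by 1.65, AT4G38080 by 1.91 and AT1G74460 by 1.72 on the log2 scale. AT1G26250 is an extensin-like gene and AT1G74460 a GDSL lipase gene. AT1G26250 had 6.74 and 7.01 in ERF5 plants, against 5.41 and 5.74 in WT control and a mean of 4.83 in the other lines. AT4G38080 had 9.54 and 9.80 in ERF5 plants, against 8.58 and 9.10 in WT control and a mean of 7.76 in the other lines. Against WT control 1 of these 5, AT4G36500, passed.

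Below the other lines were the clock gene GI (GIGANTEA) by -1.32, AT5G64110 (a peroxidase) by -1.52, AT1G65370 by -1.26, AT4G15680 (a glutaredoxin) by -1.24 and AT3G21300 by -1.22. GI had 5.57 and 5.6 in ERF5 plants, against 6.05 and 6.15 in WT control and a mean of 6.91 in the other lines. AT5G64110 had 4.21 and 4.44 in ERF5 plants, against 5.76 and 4.66 in WT control. None of these 5 passed against WT control, with limma adjusted p from 0.367 for AT3G21300 to 0.935 for AT4G15680. GI also rose in WT plants in the cold, by 2.86 ± 0.27 (limma adjusted p = 3.86e-07). GI kept its call in all 22 fits that left out 1 array, with adjusted p of at most 0.0499. The other 9 genes of the 10 were not called when at least 1 of the ERF5 arrays was left out, with limma adjusted p of up to 0.247 (AT4G38080 without ERF5 replicate 2).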

How the results depend on the processing

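Against WT control the 13 calls became 11 with a 2-fold threshold, 11 with a filter at 6, 12 with a trended and robust prior, 19 after quantile normalization (13 higher, 68.4%, against 84.6% as reported) and 18 without the DEAR1 arrays. They became 0 in a fit of only the 4 arrays compared (2452 at an unadjusted p under 0.05), 0 without the CZF1 and cold experiment arrays (1270), 42 without those and CRF3, 74 with no filter on signal (22746 tested), 190 without CRF3, 277 without CRF3 and DEAR1, and 395 with array quality weights. Leaving out each of the 4 ERF5 and WT control arrays in turn gave 0 to 14 calls (818 to 1552 at an unadjusted p under 0.05). Replacing the control by the 22°C WT arrays of the cold experiment gave 5991 calls (822 higher, 13.7%) and all 4 WT arrays gave 2206 (404 higher, 18.3%). Array medians were 5.77 to 5.84 in CZF1 and the cold experiment and 5.33 to 5.48 on the other arrays, and the part of this in those counts was not tested. Among 236 tested list members the 1 call became 0 with only the groups compared and without the CZF1 and cold arrays, 2 after quantile normalization and without DEAR1, 5 without CRF3, 7 with array weights and without CRF3 and DEAR1, 74 with the WT of the cold experiment and 31 with all 4 WT arrays, and 0 to 1 with 1 of the 4 arrays left out. Against the other lines the 822 calls became 168 with a 2-fold threshold, 429 with only the groups compared, 1346 with array weights, 1999 without CRF3 and 2453 without CRF3 and DEAR1, with 72 to 2446 when an array was left out. Quantile normalization gave 804 calls (48.3% higher, against 29.1%), and leaving CZF1 out of the other lines gave 585 (39.1% higher). The fits without CZF1, DEAR1 or the cold arrays were chosen after seeing the data.

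Signs turned in values that did not pass. Against the WT of the cold experiment AT2G39920 was -0.53, AT1G07050 -0.18, AT5G52450 -0.29, STZ -0.13 and ASPGB1 0.085, and STZ was -0.003 against all 4 WT arrays. AT5G52450 had passed as reported. Against the other lines, with 1 array left out, AT2G39920 ran from -0.18 (without ERF5 replicate 2) to 0.57, AT2G31800 from -0.005 (without ERF5 replicate 2) to 0.61, GH9B13 from -1.43 to 0.13 (without ERF5 replicate 2), accD from -1.67 to 0.27 (without ERF5 replicate 1) and ASPGB1 from -0.13 to 0.017 (without CRF3 replicate 1). AT5G03350 was 0.024 without CRF3 and DEAR1, and ASPGB1 was 0.012 after quantile normalization. The cause was not tested in any of these.

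With the replicate number as a block, 10 probe sets were called against WT control (8 higher), 756 against the other lines and 1 list member. Deviations of ERF5 and WT control arrays of the same number had a correlation of 0.04 (-0.35 to 0.18 over 91 pairs of groups). With 2 arrays per group this cannot tell whether equal numbers mark a pairing, and the labels state none. The number of arrays, 2 per group, limits every value.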
